A study of Rattus norvegicus with 2 samples.

Results

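The genes described here encode subunits of the GABA-A receptor (Gabra2, Gabra3, Gabra5, Gabrb1 and Gabrb2) and the chloride cotransporters NKCC1 (Slc12a2) and KCC2 (Slc12a5). They were chosen by name, and 7 of the 14217 genes with a single symbol on the array are members, covered by 8 probe sets, each a group of short probes against 1 transcript summed up as 1 signal. The values come from dorsal root ganglia (DRGs), where the cell bodies of sensory neurons (SNs) lie, of female Sprague-Dawley rats. The methods give their age as 4 weeks without saying whether at inoculation or at collection. IP-B12, an osteolytic rat pulmonary carcinoma line, had been inoculated into their right tibial marrow 14 days before the DRGs were collected. RNA of the DRGs of the inoculated side was measured on 1 array and RNA of the DRGs of the left side, the control, on 1 array. The methods describe inoculated rats and no sham injection into the left tibia, and their account of these arrays gives neither the number of rats nor the spinal level of the DRGs, although DRGs used elsewhere in the study were lumbar. The comparison addresses how gene expression of DRGs differs beside a tumor in bone, and with 1 array per side it has no replicate error and no test.

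GABA-A receptors are chloride channels opened by the transmitter GABA and assembled from several subunits, of which the alpha and beta subunits form the GABA binding site. Whether their opening excites or inhibits a neuron depends on its internal chloride, which NKCC1 brings in and KCC2 carries out. Mature neurons of the brain and spinal cord rely on KCC2, whereas SNs keep their chloride high through NKCC1, so that GABA depolarizes them. Such depolarization at the central terminals of SNs is a basis of presynaptic inhibition in the spinal cord, where pain signals enter.

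The member genes fell into a bright and a dim group on both arrays. Gabra2, Gabra5, Gabrb2 and Slc12a2 met a signal rule, under which the higher of both signals reaches the median signal of its array (69.0 in control DRGs and 72.7 in tumor-side DRGs), and Gabra3, Gabrb1 and Slc12a5 did not. None of the 4 above the rule differed by a fold of 2 between the sides, where 0.32% of all 15925 probe sets above the rule did so in either direction. None of the 4 differed by a fold of 1.5 either, against 2.14% of those probe sets. At any signal, 2 of the 7 genes were past a fold of 2, Gabra3 and Gabrb1, both lower on the tumor side and both dim, and among all probe sets below the rule 12.5% were as much lower and 27.8% were past that fold in either direction.

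**Figure D1:**
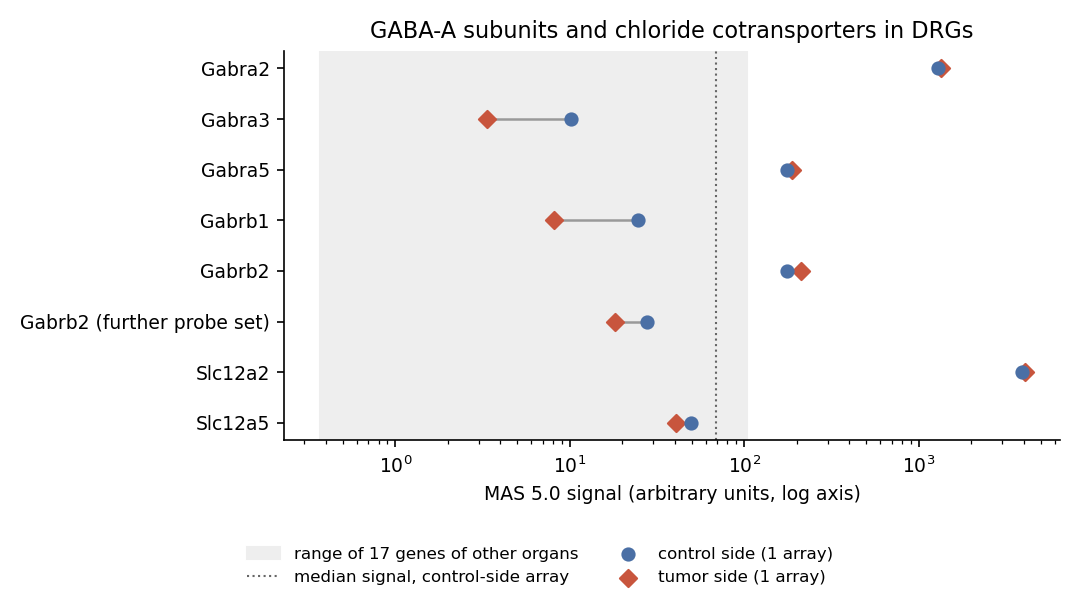
MAS 5.0 signal (log axis) of each probe set of the 7 genes on the control-side array (circles) and the tumor-side array (diamonds), 1 array each, with the range of 17 genes of other organs shaded and the median signal of the control-side array dotted. Gabra2, Gabra5, Slc12a2 and the brighter probe set of Gabrb2 lie above the shaded range on both arrays, and the sides lie far apart only for dim probe sets inside it.

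Signals of different probe sets also depend on how well their probes bind, so a higher signal of one gene than of another does not give the order of their transcripts. How dim a signal had to be before it no longer stood out was described with 17 measured genes of other organs, such as the liver, pancreas, testis and eye. Their signals ranged from 0.37 to 97.7 on the control side and from 0.57 to 104 on the tumor side, with medians of 9.13 and 14.9. The brightest was Cela1, an elastase gene, and the next on the control side was Ins1, an insulin gene, with 48.7 there and 28.5 on the tumor side. The 3 control probe sets against the bacterial gene trp reached 5.39 in control DRGs and 4.63 in tumor-side DRGs.

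Among the alpha subunits, which with the gamma subunits shape the benzodiazepine site, Gabra2 was the one far above these levels. Its signal was 1281 in control DRGs and 1339 in tumor-side DRGs, at percentiles 93.1 and 92.9 of the arrays. Its log2 ratio, given throughout as tumor side over control, was 0.06, close to the median of 0.08 over all probe sets above the signal rule, and smaller than the SD of 0.08 between log2 ratios of probe sets of the same gene at this brightness (212 genes). This SD is a technical spread that stands in for replicates and covers no difference between animals. Gabra5, known for receptors outside synapses, had 176 in control DRGs and 187 in tumor-side DRGs, both above all 17 genes of other organs. Its log2 ratio was 0.08, against an SD of 0.19 over 624 genes. Gabra3 gave no level that stood out on either array. Its signal was 10.1 on the control side, under that of 8 of the 17 genes of other organs, and 3.36 on the tumor side, within the range of the trp control probe sets of that array. The size of its difference is therefore not given, and Gabra3 is counted past a fold of 2 by its listed signals only. Among the 500 probe sets closest in mean signal the tumor-side signal was lower by a fold of 2 or more in 137 and higher by as much in 166.

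Of the beta subunits, which the receptor needs to reach the cell surface, Gabrb2 was measured above the genes of other organs and Gabrb1 was not. The brighter probe set of Gabrb2 had 177 in control DRGs and 212 in tumor-side DRGs, a log2 ratio of 0.27 that exceeded the SD of 0.19 between probe sets of the same gene (625 genes). Among the 500 probe sets closest in signal, 76 had a ratio as high. A further, dim probe set of Gabrb2 went the other way, with 27.5 in control DRGs and 18.1 in tumor-side DRGs, so the higher signal on the tumor side was not shared between the probe sets. Gabrb1 had 24.4 in control DRGs and 8.11 in tumor-side DRGs. These signals were at or under those of 3 of the 17 genes of other organs on the control side and of 10 on the tumor side. The log2 ratio of Gabrb1, -1.59, was larger in size than the SD of 1.03 between probe sets of the same gene at such low signals (226 genes), and 31 of the 500 closest probe sets were as low or lower. In these bulk samples, fewer cells of a type and less RNA per cell cannot be told apart for any of these genes.

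The median log2 ratio over the 5 subunits was 0.06, or 0.08 over the 3 above the rule. The small positive log2 ratios of Gabra2 and Gabra5 turned to slightly negative ones when the tumor-side array, which was 5.98% brighter by its trimmed mean, was brought to the level of the control side. They then were -0.02 and -0.00 with median-centred log2 ratios, while Gabrb2 was at 0.18, as it was after quantile normalization or loess, and no longer exceeded its SD of 0.19.

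**Figure D2:**
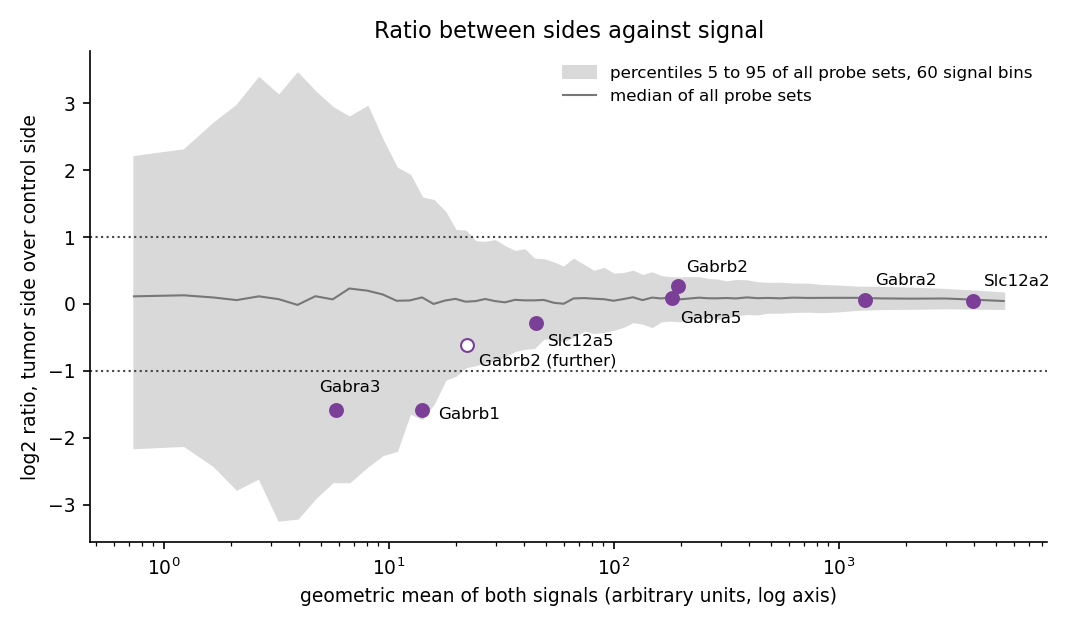
Log2 ratio of the signals, tumor side over control, against the geometric mean of both signals (log axis) for each probe set of the 7 genes (filled, brightest probe set, and open, the further one of Gabrb2), with the median and the percentiles 5 to 95 of all probe sets in 60 bins of signal. The dotted lines mark a fold of 2, and the genes beyond it, Gabra3 and Gabrb1, lie where the band is wide, Gabra3 with a tumor-side signal in the range of the trp control probe sets.

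The subunit genes lie in clusters on the chromosomes, and signals differed between neighbours. In the RefSeq annotation of the assembly GRCr8, Gabrb1 and Gabra4 are adjacent and 1 protein-coding gene lies between Gabra4 and Gabra2, next to which lies Gabrg1. In this cluster the signals of Gabra2 and Gabrg1, a gamma subunit with 296 in control DRGs and 328 in tumor-side DRGs, were above all 17 genes of other organs on both arrays. Those of Gabra4, with 15.7 and 10.3, and of Gabrb1 were not. Gabra5 lies beside Gabrg3, another gamma subunit, with 19.4 in control DRGs and 18.0 in tumor-side DRGs, within the range of the genes of other organs. Gabrb2 lies beside Gabra6, known from granule cells of the cerebellum, with 22.8 on both sides by its brightest probe set. A further, dimmer probe set of Gabra6 had 0.49 in control DRGs and 4.88 in tumor-side DRGs. Gabra3 lies between Gabre and Gabrq with 1 other protein-coding gene on either side. Gabre had 12.7 in control DRGs and 4.64 in tumor-side DRGs, with 2.31 and 2.56 on a further probe set, and Gabrq had 19.7 and 28.3.

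Of the 16 subunit genes measured, 4 were above the signal rule, namely Gabra2, Gabra5, Gabrb2 and Gabrg1. All 4 had log2 ratios within a fold of 1.5, from 0.06 to 0.27, Gabrg1 with 0.15. By brightest probe set, 1 of the 11 measured subunits that are not members was past a fold of 2 at any signal, the dim Gabre. Their median log2 ratio was -0.00. Gabrd, the subunit of extrasynaptic receptors, had 59.0 in control DRGs and 56.5 in tumor-side DRGs on a probe set that may cross-hybridise, and its further probe sets had 19.1 and 11.1 and 6.95 and 6.32. On their brightest probe sets, the rho subunits of the retina, Gabrr1, Gabrr2 and Gabrr3, and Gabrp of epithelia had signals from 7.93 to 33.1 over both arrays. Further probe sets had 7.90 in control DRGs and 11.5 in tumor-side DRGs for Gabrr1, 15.6 and 2.27 for Gabrr2, and 0.44 and 0.61 for Gabrp.

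**Figure D3:**
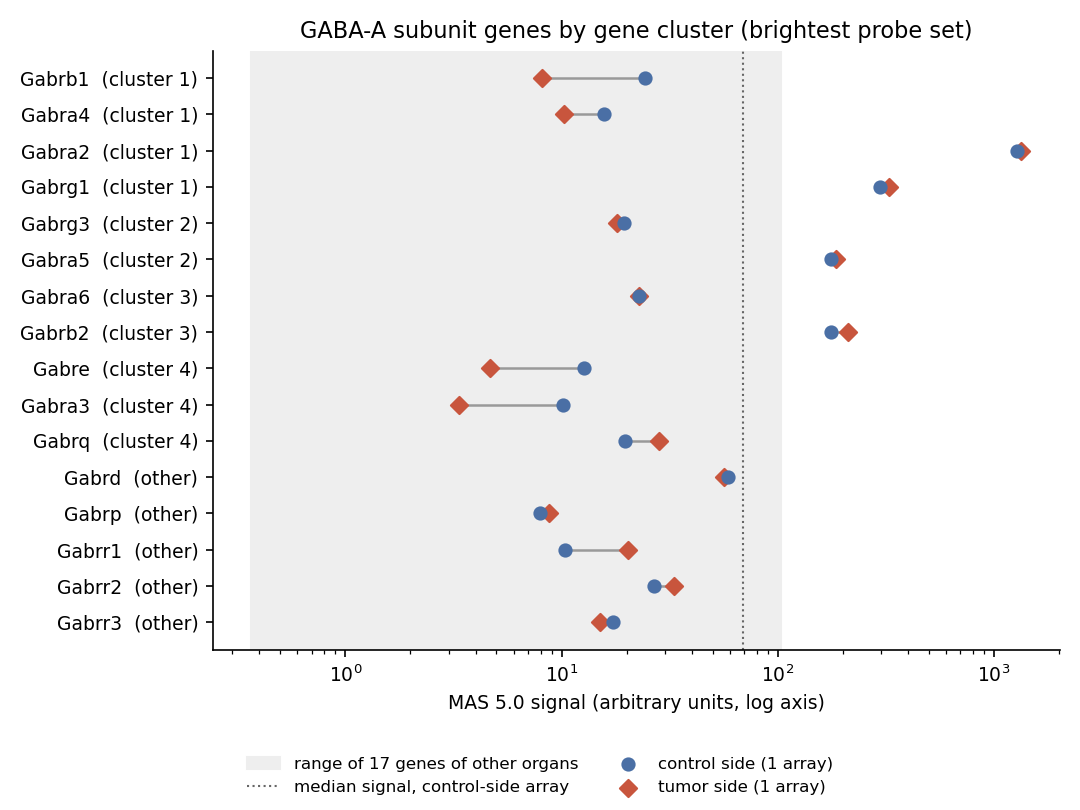
Signal (log axis) of the brightest probe set of the 16 measured GABA-A subunit genes on the control-side array (circles) and the tumor-side array (diamonds), ordered by their gene clusters, with the range of 17 genes of other organs shaded and the median of the control-side array dotted. The signals of Gabra2, Gabrg1, Gabra5 and Gabrb2 lie to the right of the shaded range on both arrays, and Gabrb1, Gabra4, Gabrg3 and Gabra6 of the same clusters lie within it.

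Slc12a2 was bright and close between the sides, and Slc12a5 was dim. Slc12a2, which encodes the importer NKCC1, had 3907 in control DRGs and 4037 in tumor-side DRGs, at percentile 98.4 of both arrays. Its log2 ratio of 0.05 was smaller than the SD of 0.06 between probe sets of the same gene (72 genes), and it turned to -0.04 with median-centred log2 ratios and to -0.02 after quantile normalization or loess. Slc12a5, which encodes the exporter KCC2, had 49.7 in control DRGs and 40.8 in tumor-side DRGs, at percentiles 44.5 and 40.4. On each array 16 of the 17 genes of other organs were dimmer than Slc12a5 and 1, Cela1, was brighter. Its log2 ratio of -0.28 was smaller in size than the SD of 0.41 between probe sets of the same gene (478 genes), and 86 of the 500 closest probe sets were as low or lower.

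The ratio of the Slc12a2 to the Slc12a5 signal was 78.7 in control DRGs and 99.0 in tumor-side DRGs. As a ratio of signals of different probe sets it is not a ratio of transcripts, and although the binding of the probes cancels when the sides are compared, background in the dim signal of Slc12a5 does not. This ratio was 1.26 times higher on the tumor side, a log2 difference of 0.33, which is smaller than the SD of 0.41 from both probe sets combined. It came mainly from the dim signal of Slc12a5, since Slc12a2 itself differed by 0.05.

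The direction was not the same for the other exporters of the family. Slc12a7, which encodes KCC4, had 267 in control DRGs and 313 in tumor-side DRGs, a log2 ratio of 0.23, with 16.7 and 8.73 on a further, dim probe set. Slc12a4, the widely expressed KCC1, had 62.4 and 80.4, with a log2 ratio of 0.36. The signal ratio of Slc12a2 to Slc12a7 was 14.6 in control DRGs and 12.9 in tumor-side DRGs, a log2 difference of -0.18, about as large as the SD of 0.17. That of Slc12a2 to Slc12a4 differed by -0.32, against an SD of 0.32. By these probe sets the ratio of importer to exporter signal was higher on the tumor side with KCC2 and lower with KCC1 and KCC4, by differences no larger than or close to 1 SD. None of these directions is firm, since the signals of Slc12a5 and Slc12a4 lay within the range of the genes of other organs and the further probe set of Slc12a7, with a log2 ratio of -0.94, turns the direction for KCC4.

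Genes of the family with their main site in the kidney show what a dim signal can mean on these arrays. Slc12a1, the NKCC2 of the kidney, had 59.6 in control DRGs and 73.4 in tumor-side DRGs, and Slc12a3, the thiazide-sensitive cotransporter, had 30.3 and 38.1. The signals of Slc12a5 lay in the same range. Slc12a9 had 86.7 and 79.9, and Slc12a8 had 1.42 and 2.03, within the range of the trp control probe sets. Of the 6 other cotransporters measured, 4 were above the signal rule and none differed by a fold of 2, with a median log2 ratio of 0.26 over the 4 against 0.08 over all probe sets above the rule. The SD between probe sets of the same gene at this brightness was 0.30, and the median became 0.09 when the probe sets of each gene were averaged. Of the 4, Slc12a1, Slc12a4 and Slc12a9 had signals within the range of the genes of other organs.

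NKCC1 is switched on and KCC2 off when kinases of the WNK family activate SPAK (Stk39) and OSR1 (Oxsr1). All 6 measured genes of these kinases and their scaffold partners were above the signal rule and none differed by a fold of 2. Stk39 had 2457 in control DRGs and 2664 in tumor-side DRGs, Oxsr1 had 335 and 364, and the brightest probe set of Wnk1 had 2025 and 2267. Cab39, a partner that activates SPAK and OSR1, had 2058 and 2225. Its relative Cab39l had the largest log2 ratio of the 6, 0.22, with 524 and 611. The median of the 6 was 0.12, and Wnk2 alone was lower on the tumor side (239 and 231). A further probe set of Wnk1 went against the brightest, with 174 and 128.

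**Figure D4:**
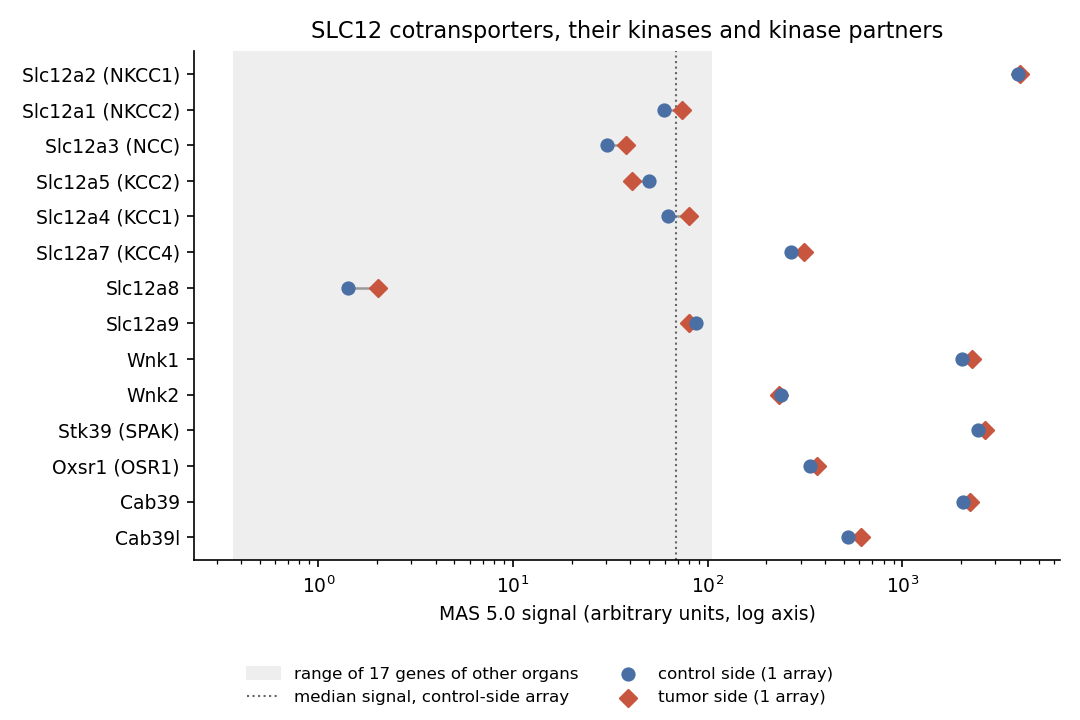
Signal (log axis) of the 8 measured SLC12 cotransporter genes and 6 genes of their kinases and kinase partners on the control-side array (circles) and the tumor-side array (diamonds), with the range of 17 genes of other organs shaded and the median of the control-side array dotted. Slc12a2 (3907 and 4037) and the kinase genes lie to the right of the shaded range, and Slc12a5 (49.7 and 40.8) lies within it, near Slc12a1 and Slc12a3.

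Regulators linked to these cotransporters were measured at 5 genes, all above the rule and none past a fold of 2. Bdnf, a neurotrophin that lowers KCC2 in neurons of the spinal cord, was the lowest of them on the tumor side, with 524 in control DRGs and 357 in tumor-side DRGs, and its further probe set had 69.0 and 43.7. The log2 ratios were -0.55 and -0.66. Ntrk2, which encodes the BDNF receptor TrkB, had 1310 and 1346. Atp1b1, a subunit of the sodium pump whose gradients drive both cotransporters, had 7219 and 7257. Prkcd, a protein kinase C, had 547 and 515, and Ppp1ca, a phosphatase subunit, had 1743 and 1915.

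Genes that place and move GABA-A receptors were mostly bright. Of 13 measured, 10 were above the rule, none was past a fold of 2 at any signal, and the median log2 ratio of the 10 was 0.05. Gabarap, which encodes a protein that binds gamma subunits, had 3769 in control DRGs and 3927 in tumor-side DRGs, and its relative Gabarapl1 had 3759 and 3757. Ubqln1, whose product stabilizes the subunits, had 2275 and 2272. Above the rule the largest log2 ratios were those of Clptm1, which holds subunits back in the cell (0.28, with 321 and 389), of Plcl1, a partner in receptor trafficking (0.27, with 477 and 575) and of Rdx, the anchor radixin (0.20, with 785 and 901). Gphn, the synaptic scaffold gephyrin, named here after its values were seen, had 525 and 540.

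The GABA system of these DRGs otherwise showed bright GABA-B receptors and dim genes of GABA synthesis. Gabbr1 and Gabbr2 encode the subunits of the metabotropic GABA-B receptor. Gabbr1 had 1178 in control DRGs and 1170 in tumor-side DRGs, and Gabbr2 had 1020 and 985. Their auxiliary subunit Kctd12 had 5237 and 5449. Of the 7 genes measured in that list, 5 were above the rule and none of the 5 was past a fold of 2, with a median of -0.01. The potassium channel gene Kcnj6 had the lowest log2 ratio of the 5 (132 and 102) and Kcnj3 the highest (90.1 and 110). Further probe sets of Kcnj6, all below the rule, were lower on the tumor side too. They had 51.5 and 19.4, 27.1 and 18.9, and 22.3 and 10.3, the first and the last past a fold of 2. Of 7 genes of GABA synthesis, uptake and breakdown, 1 was above the rule, Aldh5a1 of GABA breakdown, with 171 and 181. The transporter gene Slc6a13 had 59.5 and 61.1, and the transaminase gene Abat had 53.2 and 63.8. Gad1 and Gad2, named here after their values were seen, encode the enzymes that make GABA. Gad1 had 36.6 and 37.7 and Gad2 had 7.37 and 6.82, all within the range of the genes of other organs.

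Other anion channels and transporters were set beside these genes. Of 18 measured, 8 were above the rule and none of the 8 differed by a fold of 2, with a median log2 ratio of 0.06. The brightest were Glrb, the beta subunit of the glycine receptor, with 2902 in control DRGs and 3038 in tumor-side DRGs, Clcn3, an endosomal chloride transporter, with 2305 and 2408, and Slc4a4, a bicarbonate transporter, with 1897 and 1965. Among these 8 the largest log2 ratios in size were 0.33 for Slc4a2, an exchanger of chloride for bicarbonate (130 and 164), 0.26 for Slc4a7 (333 and 400) and -0.19 for Clcn6 (853 and 750). The alpha subunits of the glycine receptor, Glra1, Glra2 and Glra3, were below the rule, and each had at least 1 signal within the range of the trp control probe sets.

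Marker genes put these samples among sensory ganglia. All 16 measured markers of SNs were above the rule, from 370 for the transcription factor Isl1 to 12688 for the neurofilament Nefm on the control side. Their log2 ratios ranged from -0.18 to 0.12, 9 of the 16 were lower on the tumor side, and their summed signal was 91320 in control DRGs and 90771 in tumor-side DRGs. Of 11 markers of spinal cord and brain, where KCC2 is abundant, 10 were below the rule and 4 had a signal within the range of the trp control probe sets. The exception was Slc17a7, a vesicular glutamate transporter that SNs express too, with 212 and 167. Satellite glia markers summed to 10507 and 10727 and Schwann cell markers to 19753 and 19801.

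Lists of skeletal muscle, granulocyte and bone markers held genes that differed more between the sides than any bright member. Among the 9 skeletal muscle markers that met the rule, 8 fell short of the control side by a fold of 2 or more and the sum over all 11 measured was 2160 and 1475. Much of that sum was Pvalb, which neurons of DRGs express too, with 1063 in control DRGs and 1200 in tumor-side DRGs, and without it the sum was 1096 and 275. Among the 6 bone and cartilage markers that met it, 3 exceeded the control side by that fold and the sum over all 8 measured was 1144 and 2163. Acan (23.8 and 11.8) and Dmp1 (52.3 and 37.6) of that list, both below the rule, were lower on the tumor side. Among 3 granulocyte markers that met the rule, 2 were lower by a fold of 2 or more, and 3 of 3 erythroid markers that met it were lower by less. Camp, a granulocyte marker below the rule, was higher on the tumor side, with 23.6 and 30.9. None of the macrophage, connective tissue and endothelial markers that met the rule was past that fold, with median log2 ratios of 0.15 over 8, 0.29 over 8 and 0.20 over 3 genes. No marker was listed at 0. The part of these tissues in the signals of the GABA-A subunits and cotransporters was not tested.

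**Figure D5:**
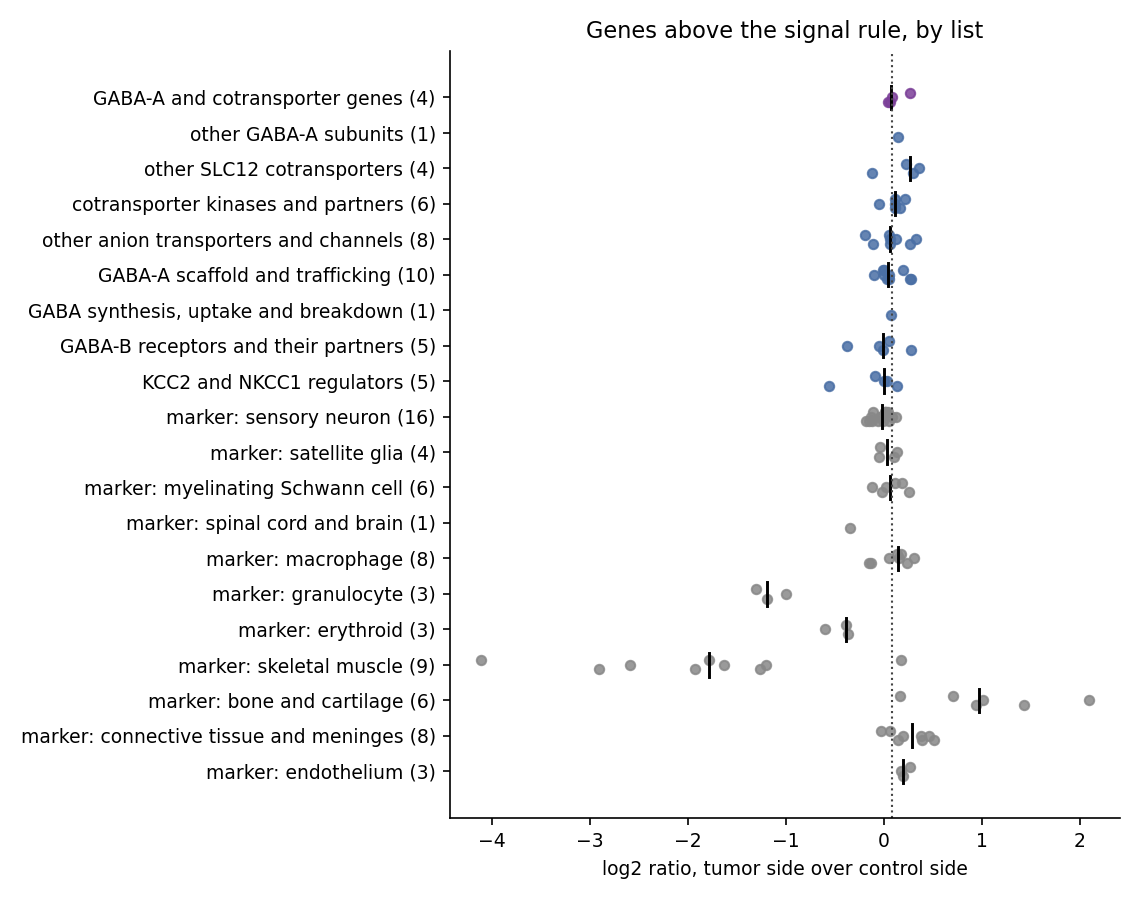
Log2 ratio of the signals, tumor side over control, for genes above the signal rule, 1 row of points per list with its gene count in brackets, the median of lists of at least 3 genes as a black bar and the median of all probe sets above the rule (0.08) dotted. The 4 GABA-A and cotransporter genes lie between 0.05 and 0.27, while muscle, granulocyte and bone markers reach beyond a log2 ratio of 1 in size.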

How the data were processed

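The authors hybridized RNA (100 ng of total RNA as input) to the GeneChip Rat Genome 230 2.0 array and derived signal intensity values with MAS 5.0 at default settings. The deposited intensity values are on a linear scale for 31099 probe sets, of which 57 are controls, while the scaling behind them is not stated in the labels or methods. No detection calls were used. Of the others, 20826 carry a single gene symbol and were used for genes, 436 carry more than one, and 9780 carry none in the table used. By gene ID, 20758 of the 20826 matched RefSeq (GRCr8), all 7 members with the same symbol. The brightest probe set by mean log2 signal stood for a gene. Log2 ratios had no pseudocount. The noise was described by the pooled SD between probe sets of 1 gene within a fold of 2 in signal. The labels and methods name no genome build, so GRCr8 served for names and gene order only, with no coordinates.

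The members and the gene lists were chosen with earlier results of these data known. Named genes were drawn from the members, all other measured subunits and SLC12 genes, and of each list the up to 3 brightest and the up to 3 with the largest log2 ratios above the signal rule. Genes named outside that rule were chosen after their values were seen. For Mylpf the probe table's symbol Myl11 was used. The alternatives comprised quantile normalization, centring of log2 ratios on their median, loess (span 0.3), centring on SN markers, a pseudocount of 11.1 (percentile 20), the mean over all probe sets, cross-hybridising probe sets left out, other folds and other signal filters. The procedure was tested on simulated data, with changes placed only in probe sets above the signal rule and the same noise at every brightness. That test does not cover dim signals. The software was Python 3.11.15 with pandas 2.3.3, numpy 2.4.6, matplotlib 3.10.9 and statsmodels 0.14.6. The number of arrays limits the precision.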

Additional observations from a re-analysis of the deposited data

How the results depend on the processing

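The count of 2 genes past a fold of 2, Gabra3 and Gabrb1, was also 2 with folds of 1.5 and 3, while the pseudocount took it to 0, since adding it to both signals shrinks the ratio of dim ones. The median log2 ratio of the 5 subunits, 0.06, became -0.17 when the probe sets of each gene were averaged, because the dim further probe set of Gabrb2 pulled that gene to -0.17. The log2 difference of 0.33 in the Slc12a2 over Slc12a5 signal ratio was between 0.28 and 0.33 after quantile normalization, loess or the pseudocount, while centring and the choice of probe set cannot move a ratio of genes with 1 probe set each. Of 49 log2 ratios of single members under alternatives, 43 moved by less than the SD between same-gene probe sets and 6 by more, and of 137 list medians 122 moved by less and 15 by more. The sign of Gabra2, Gabra5 and Slc12a2 depended on the scaling. No paired analysis was possible because there is 1 array for either side. Dim signals limit what can be seen, above all for Gabra3, Gabrb1 and Slc12a5.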
